A study of Mus musculus with 18 samples.

Results

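Genes of matrix metalloproteinases (MMPs), of ADAMTS proteases and ADAMTS-like proteins, and of their tissue inhibitors (TIMPs) were followed in visceral fat of 18 mice. Members were taken by gene symbol: each gene named Mmp with a number, each gene whose symbol starts with Adamts, and the Timp genes. This gave 49 of the 19938 genes measured, with 22 MMPs, 18 ADAMTS proteases, 5 ADAMTS-like proteins and 4 TIMPs. The symbols alone set the members, and the probe set with the highest mean signal stood for a gene with several. This set of genes was chosen with earlier results of these data known.

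The study examined what insulin-deficient diabetes and bezafibrate (BEZ), a lipid-lowering drug that activates peroxisome proliferator-activated receptors (PPARs), do to gene expression. RNA of visceral white adipose tissue (WAT) was hybridised to Affymetrix Mouse Gene ST arrays, with 1 array for each mouse. All mice were wildtype C57BL/6N males aged 5 to 6 months. The Con, SD group (n = 7) was mock-injected with citrate buffer and ate a standard diet (SD). The STZ, SD group (n = 6) ate the same diet and had received streptozotocin (STZ), a toxin of insulin-producing beta cells, at 65 mg/kg into the abdominal cavity on 5 days in a row at 10 to 16 weeks of age. The STZ, BEZ group (n = 5) received the same injections and, from 2 weeks after them, chow with 0.25% or 0.5% BEZ for 8 weeks. The labels do not give the BEZ concentration of a single mouse. The study's methods state 0.5% BEZ, another STZ dose, a single age at injection and at sacrifice, and untreated controls. Mice given BEZ without STZ were not analysed here, so BEZ was compared in STZ-injected mice alone.

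MMPs are zinc proteases that cut collagens and other proteins of the extracellular matrix, and most are made as inactive precursors. ADAMTS proteases are secreted relatives that bind the matrix. Some of them cut proteoglycans such as aggrecan and versican, and others process procollagen. ADAMTS-like proteins resemble them but lack the protease domain. TIMPs bind the active site of these enzymes and block it. In adipose tissue, turnover of the matrix accompanies the growth and shrinkage of fat cells, and MMP14 is known as a collagenase that fat cells need in order to expand.

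Among the 49 genes, 10 MMP genes lie in one cluster on mouse chromosome 9: Mmp13, Mmp12, Mmp1b, Mmp3, Mmp1a, Mmp10, Mmp8, Mmp27, Mmp20 and Mmp7. Promoter windows from 250 bases before to 50 bases after the transcription start were taken from RefSeq (build GRCm38.p6), which listed 34 of the 49 genes with 37 windows. The binding motif of the AP-1 factors was searched on either strand with any base in the middle (TGANTCA). It was in 8 member windows (21.6%), and all 8 belonged to that chromosome 9 cluster. The Mmp20 match read TGAATCA. Of all 32851 windows, 7.81% held it. A perfect DR1 element, the motif of PPAR heterodimers (AGGTCA, any base, AGGTCA), was on either strand in 0 member windows and in 0.0396% of all windows. These matches describe letters in a window and no binding was measured. Stretches of 4 of these 8 windows are shown as examples. Each reads 5′ to 3′ on the plus strand with the AP-1 motif in capitals. They are Mmp13 at chr9:7272439-7272513, Mmp12 at chr9:7347290-7347373, Mmp3 at chr9:7445736-7445821 and Mmp7 at chr9:7691987-7692073.
Mmp13: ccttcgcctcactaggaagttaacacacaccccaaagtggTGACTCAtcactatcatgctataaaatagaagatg
Mmp12: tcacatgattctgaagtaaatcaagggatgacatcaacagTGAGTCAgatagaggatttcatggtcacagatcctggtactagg
Mmp3: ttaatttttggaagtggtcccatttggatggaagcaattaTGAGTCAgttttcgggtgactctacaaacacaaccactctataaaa
Mmp7: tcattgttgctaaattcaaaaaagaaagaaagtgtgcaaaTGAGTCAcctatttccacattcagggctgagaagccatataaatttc
The first base of the motif lay 35 bases before the start in Mmp13, 44 in Mmp12, 46 in Mmp3 and 63 in Mmp7. None of the 6 changed members that the promoter table holds had this motif in its window.

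Several arrays carried RNA of neighbouring organs. The mean log2 signal of 17 pancreas markers lay between 5.91 and 6.26 among the Con, SD mice and between 5.85 and 6.09 among STZ, SD replicates 1 to 5. It was 12.95 in STZ, SD replicate 6 and 10.93, 9.28, 9.01 and 8.51 in STZ, BEZ replicates 1 to 4, against 6.00 in STZ, BEZ replicate 5. Markers of epididymis and testis (16 genes) were highest in Con, SD replicates 5 and 3 (11.07 and 10.71) and STZ, SD replicate 3 (10.98). On the other Con, SD and STZ, SD arrays they lay between 5.63 and 8.45, and in STZ, BEZ between 5.69 and 6.14. White adipocyte markers (15 genes) averaged 11.55 to 12.31 on the Con, SD arrays and 11.98 to 12.31 on the STZ, BEZ arrays. In STZ, SD they ranged from 9.71 to 12.05 and were lowest in replicates 6, 4 and 3 (9.71, 10.88 and 11.06). Skeletal muscle markers (12 genes) ranged from 6.55 to 8.29 in Con, SD, with the highest value in replicate 1, from 6.29 to 6.51 in STZ, SD and from 6.30 to 7.19 in STZ, BEZ. Against Con, SD, limma called 5 of them lower in STZ, SD (median difference -0.64) and 3 lower in STZ, BEZ (-0.51). It called 4.52% and 1.38% of all genes lower there. Mesothelial markers (10 genes) ranged from 8.05 to 9.33, from 8.49 to 9.85 and from 8.62 to 9.30 in the same order of groups. Their median differences from Con, SD were 0.42 and 0.59. Limma called 1 and 0 of them, beside 10.3% and 5.95% of all genes. SAM called 3 and 5, beside 12.3% and 25.1% of all genes. An unadjusted p under 0.05 was found for 3 and 4. The share of all genes at such a p was counted for STZ, BEZ vs. STZ, SD alone (10.2%). The part of these tissues in the results below was not tested. Results of named members are therefore given with and without STZ, SD replicate 6 where its removal changed a call. The fit estimates the spread of a gene from all 3 groups together. Leaving out an array can therefore move the adjusted p of a comparison that does not use it, while that difference stays the same. In bulk tissue, fewer cells of a type and less RNA per cell cannot be told apart.

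**Figure D1:**
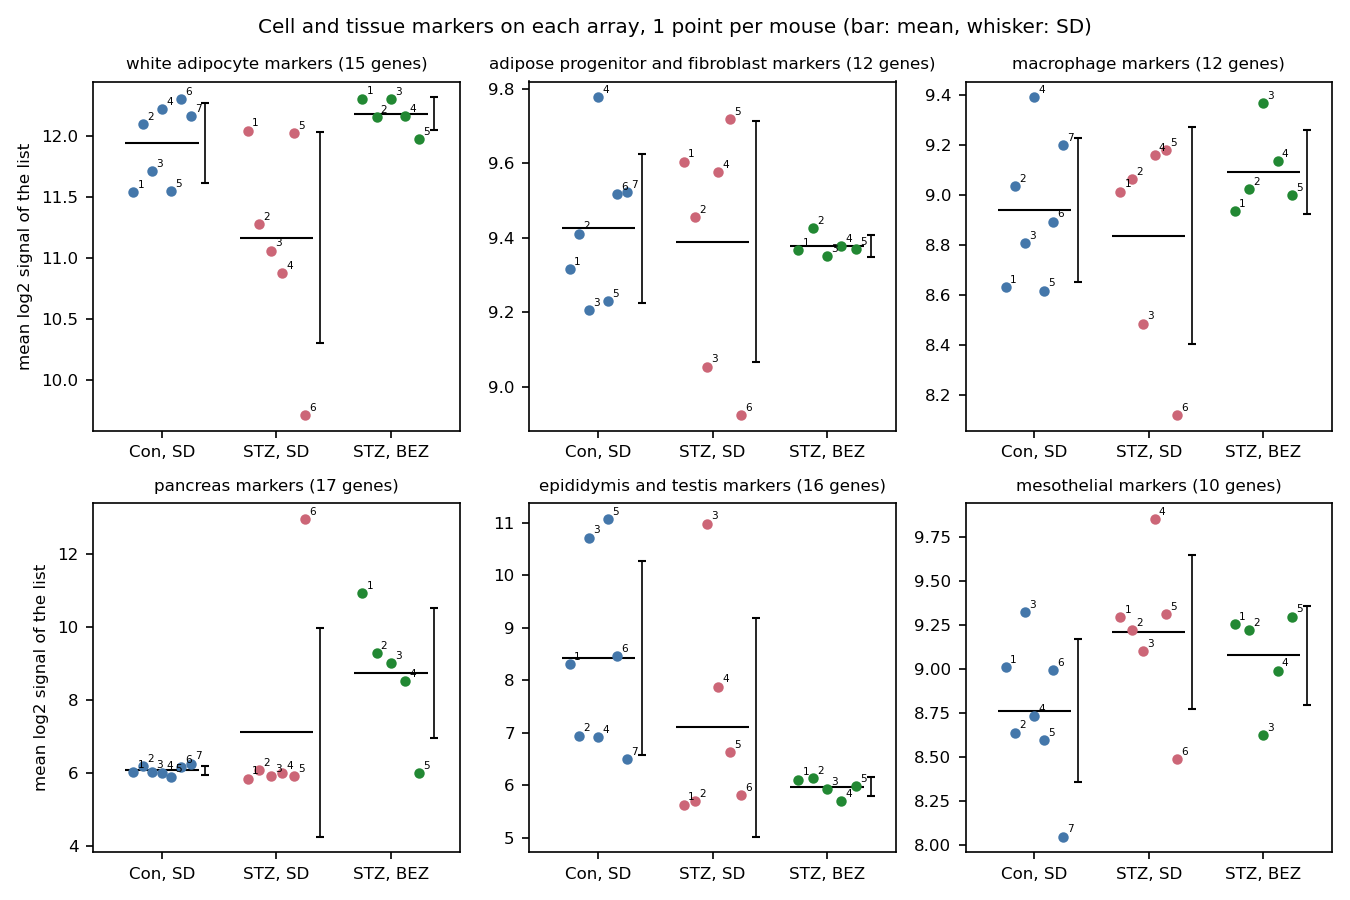
Mean log2 signal (y axis) of 6 lists of marker genes in each mouse of the 3 groups (x axis), with replicate numbers beside the points, the group mean as a bar and the SD as a whisker. Pancreas markers stand at 12.95 in STZ, SD replicate 6 and at 8.51 to 10.93 in STZ, BEZ replicates 1 to 4, while all other arrays lie at 6.26 or below.

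In STZ, SD vs. Con, SD, 6 of the 49 genes changed, and the largest differences were losses. The transcript of Adamts5, an aggrecanase, was 3.71-fold lower and that of Timp4, a TIMP abundant in fat, was 2.98-fold lower. Adamtsl2, which encodes a matrix protein that binds fibrillin, fell 1.34-fold. Mmp11 (stromelysin-3), Mmp14 (a membrane-bound collagenase) and Adamts6 (a protease linked to fibrillin microfibrils) rose 1.51-, 1.4- and 1.36-fold. The threshold for a changed gene was an adjusted p below 0.10 (limma with Benjamini-Hochberg adjustment over all 19938 genes). The 3 genes that rose and the 3 that fell were 6.12% of the members each, while 5.82% of all genes were called higher and 4.52% lower. The members' groups overlapped in every case, whereas 1.62% of all genes had groups without overlap. The median difference of the 49 genes was -0.04 on the log2 scale, beside -0.03 over all genes. Without STZ, SD replicate 6 the test called 10 members, the same 6 and also Mmp2, Adamts12, Adamts16 and Adamtsl1, while 14.5% of all genes were called, against 10.3% with all arrays.

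In STZ, BEZ vs. STZ, SD, 0 of the 49 genes passed the limma test. Over all genes, 0.682% were called higher and 0.0251% lower, so that few calls were made in this comparison as a whole. At an unadjusted p under 0.05 there were 4 members (8.16%), namely Mmp9, Mmp19, Mmp28 and Adamts15, and 10.2% of all genes. Significance analysis of microarrays (SAM), the method of the study, called 1 member, Mmp9, a gelatinase that cuts basement membrane collagen, and 2.31% of all genes. All 49 members overlapped between these groups, while 1.49% of all genes did not. The median difference was 0.04 on the log2 scale, with 29 differences above 0 and 20 below, beside a median of 0.0076 over all genes.

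In STZ, BEZ vs. Con, SD, again 6 of the 49 genes changed. Mmp9 was 2.19-fold higher, and Adamts12 (a protease that cuts cartilage oligomeric matrix protein), Mmp11 and Adamts6 rose 2.04-, 1.66- and 1.36-fold. Timp1, a soluble inhibitor of most MMPs, fell 1.8-fold and Adamts16 fell 1.27-fold. The 4 genes that rose were 8.16% of the members, beside 4.57% of all genes called higher. The 2 that fell were 4.08%, beside 1.38% of all genes called lower. Both groups were fully separate for 6 members (12.2%), beside 6.8% of all genes: Mmp2, Mmp9, Mmp11 and Adamts12 lay above every Con, SD array, and Adamts5 and Adamts16 lay below. Without STZ, SD replicate 6, an array of neither group, limma called 11 members (22.4%) and 10.5% of all genes. With all arrays SAM called 16 members (32.7%) and 25.1% of all genes. With STZ, SD replicate 6 and STZ, BEZ replicates 1 to 4 left out for their pancreas signal, STZ, BEZ replicate 5 was the single array of its group. The limma fit then called 0 members and 1.4% of all genes, with the lone array assumed to vary like the other groups. The differences were 1.52 for Mmp9, 1.23 for Adamts12, 0.89 for Mmp11, 0.24 for Adamts6, -1.09 for Timp1 and -0.49 for Adamts16. The comparisons share arrays, so their values are set side by side and counts are not compared between them.

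**Figure D2:**
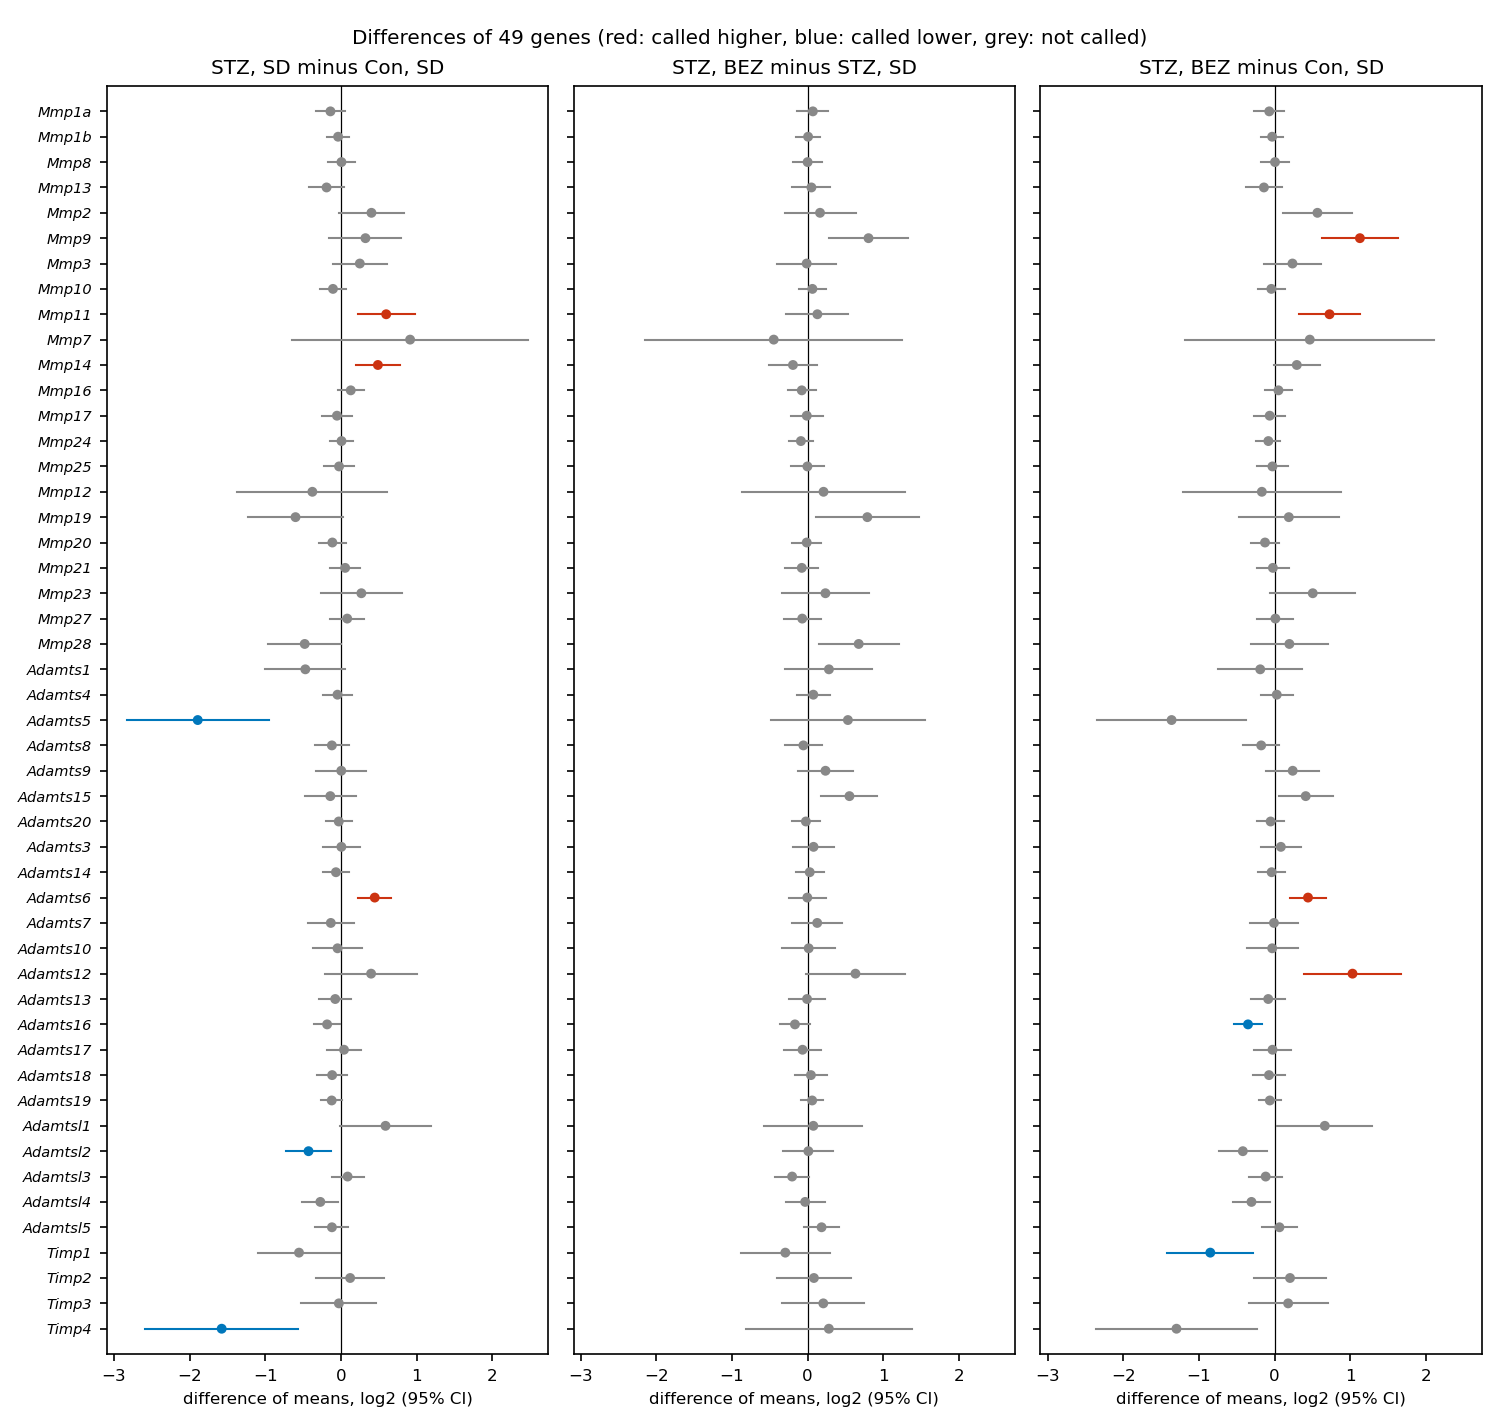
Log2 difference between group means (x axis) with its 95% confidence interval for each of the 49 genes (y axis) in the 3 comparisons, red for genes called higher, blue for genes called lower and grey for the rest. Adamts5 (-1.89) and Timp4 (-1.58) lie farthest to the left in STZ, SD minus Con, SD, and Mmp9 (1.13) and Adamts12 (1.03) farthest to the right in STZ, BEZ minus Con, SD.

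Of the inhibitors, Timp4 and Timp1 had lower means in both STZ groups and Timp2 and Timp3 did not. The log2 signal of Timp4 had a lowest value of 10.49, a median of 11.39 and a highest value of 12.10 in Con, SD, and 7.19, 10.28 and 11.15 in STZ, SD. In STZ, BEZ replicates 1 to 5 it was 9.85, 9.88, 10.74, 10.17 and 10.08. STZ, SD replicate 6 was far below the other arrays, while replicates 1, 2 and 5 overlapped with Con, SD, as did STZ, BEZ replicate 3. The difference of STZ, SD from Con, SD was -1.58 (SE 0.48, adjusted p = 0.0616), with 6 of 6 mice below the mean of Con, SD. The call was lost without Con, SD replicate 2, 4, 6 or 7 or STZ, SD replicate 4 (highest adjusted p 0.116). Without STZ, SD replicate 6 it was -1.04, with an adjusted p of 0.0427. STZ, BEZ differed from Con, SD by -1.30 (SE 0.51, adjusted p = 0.178). Without that array, which is in neither of these groups, the difference stayed the same and passed the test (adjusted p = 0.0188). The difference between STZ, BEZ and STZ, SD was 0.28 with a 95% confidence interval from -0.82 to 1.38, and had the opposite sign, -0.26, without that array.

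Timp1 signals were 7.85, 8.26 and 9.18 (lowest, median and highest) in Con, SD and 7.22, 7.81 and 8.93 in STZ, SD. In STZ, BEZ they were 7.69, 7.86, 7.54, 7.58 and 7.36. STZ, BEZ replicates 1, 3, 4 and 5 lay below every control, and replicate 2 (7.86) was level with the lowest control (7.85). Timp1 differed by -0.55 (SE 0.26, adjusted p = 0.229, and 0.0811 without STZ, SD replicate 4) in STZ, SD vs. Con, SD, and fell by 0.85 (SE 0.27, adjusted p = 0.098) in STZ, BEZ vs. Con, SD. That call was lost in 12 of 18 fits that left out 1 array: without any one of the 5 STZ, BEZ arrays, Con, SD replicate 2, 3, 4, 5 or 7, or STZ, SD replicate 1 or 5. Its adjusted p was at most 0.239, when STZ, BEZ replicate 5 was left out. Timp2, which takes part with MMP14 in activating proMMP2, averaged 10.91 ± 0.22 for Con, SD, 11.03 ± 0.65 for STZ, SD and 11.12 ± 0.12 for STZ, BEZ (mean ± SD of log2 signals). Timp3, a matrix-bound inhibitor that also blocks ADAMTS4 and ADAMTS5, had 10.81 ± 0.39, 10.79 ± 0.64 and 10.99 ± 0.16. Neither Timp2 nor Timp3 passed the test in any comparison, and their differences lay between -0.03 and 0.21.

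Adamts5 had the largest difference of the set. Its signals were 10.68, 11.41 and 11.89 (lowest, median and highest) in Con, SD and 7.29, 9.46 and 11.43 in STZ, SD. In STZ, BEZ replicates 1 to 5 they were 10.20, 9.77, 10.52, 9.71 and 9.45. STZ, SD replicate 5, with 11.43, was the one STZ-injected mouse inside the range of the controls, and replicate 6 was again the lowest. STZ, SD differed from Con, SD by -1.89 (SE 0.44, adjusted p = 0.022), and by -1.47 (adjusted p = 0.0183) without replicate 6. The call held in all 18 fits that left out 1 array. White adipocyte markers of STZ, SD replicate 5 were at 12.03 and those of replicate 6 at 9.71, and their part in the Adamts5 result was not tested. In STZ, BEZ all 5 mice lay below every control, with a difference of -1.36 (SE 0.47, adjusted p = 0.127). The same difference passed the test without STZ, SD replicate 6 (adjusted p = 0.0295) or 5 (adjusted p = 0.0541), arrays of neither group compared. STZ, BEZ was 0.53 above STZ, SD, with a 95% confidence interval from -0.49 to 1.55 (adjusted p = 0.784).

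Of the 7 proteoglycan-cleaving ADAMTS genes, Adamts5 was the single one that passed the test with all arrays. Adamts4, the other main aggrecanase, averaged 6.58 ± 0.20 for Con, SD, 6.53 ± 0.15 for STZ, SD and 6.61 ± 0.13 for STZ, BEZ, and the 95% confidence interval of its STZ, SD vs. Con, SD difference ran from -0.24 to 0.15. Adamts1 and Adamts9, which cut versican, differed by -0.47 (SE 0.25, adjusted p = 0.317) and 0.01 (SE 0.16, adjusted p = 0.989) in that comparison. Adamts15, another versican-cleaving enzyme, had signals of 6.70, 6.93 and 7.14 in Con, SD (lowest, median and highest) and 6.14, 6.77 and 7.46 in STZ, SD. In STZ, BEZ it had 7.44, 7.26, 7.41, 7.47 and 7.12. All 5 STZ, BEZ values were above the median of both other groups, with a difference of 0.55 from STZ, SD (SE 0.18, adjusted p = 0.247). Without STZ, SD replicate 5 that difference was 0.69 (adjusted p = 0.0485). That fit called 1.92% of all genes in this comparison, against 0.707% with all arrays. From Con, SD the STZ, BEZ group differed by 0.41 (SE 0.17, adjusted p = 0.203). The same difference passed the test without STZ, SD replicate 6, an array of neither group (adjusted p = 0.0957). The 2 procollagen-processing members, Adamts3 and Adamts14, did not pass the test in any comparison.

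**Figure D3:**
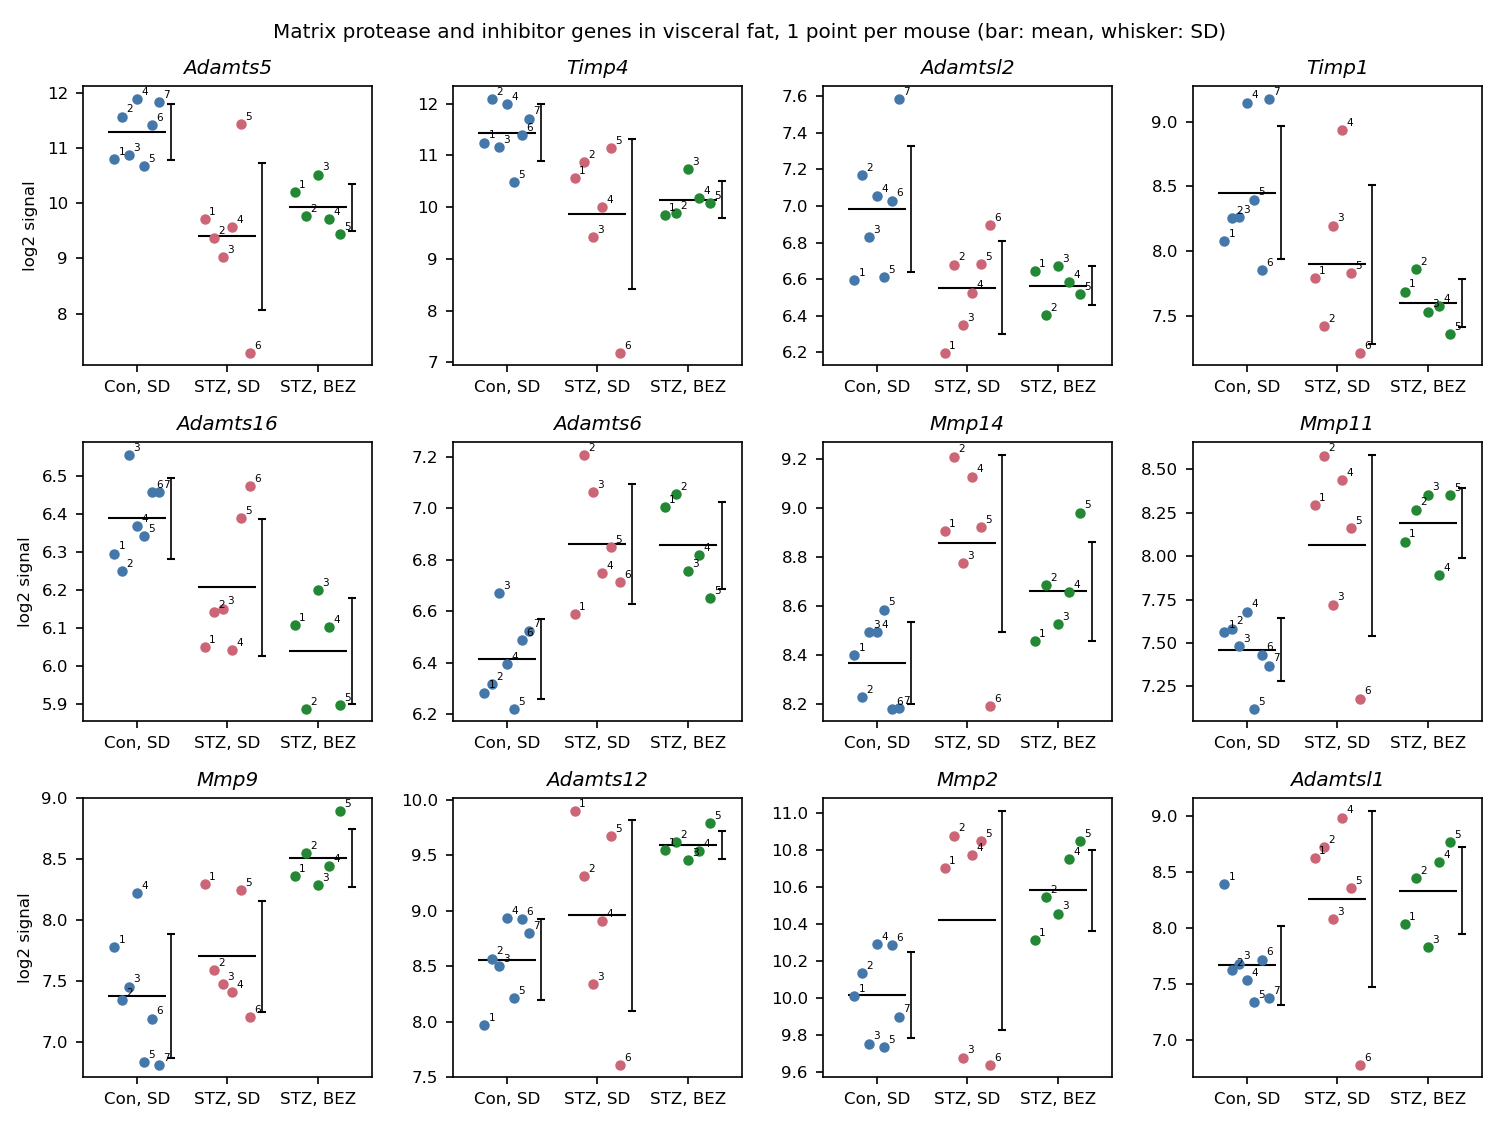
Log2 signal (y axis) of 12 member genes in each mouse of the 3 groups (x axis), with replicate numbers beside the points, the group mean as a bar and the SD as a whisker. For Adamts5 and Timp4 the STZ, SD group spreads from 7.29 to 11.43 and from 7.19 to 11.15, while the 5 STZ, BEZ mice stay close together.

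Mmp9 and Mmp2 encode the gelatinases, which cut denatured collagen and basement membrane collagen. Mmp9 signals were 6.81, 7.34 and 8.22 in Con, SD (lowest, median and highest) and 7.21, 7.53 and 8.29 in STZ, SD. In STZ, BEZ they were 8.36, 8.55, 8.29, 8.44 and 8.90. All STZ, BEZ mice were above all controls, and the lowest of them was level with the highest STZ, SD mouse. STZ, BEZ exceeded Con, SD by 1.13 (SE 0.24, adjusted p = 0.0168), a call that held in all 18 fits that left out 1 array. It exceeded STZ, SD by 0.80 (SE 0.25), with an unadjusted p of 0.00444 and an adjusted p of 0.224. Leaving out STZ, SD replicate 1, with 8.29, gave a difference of 0.92 (adjusted p = 0.0657). That fit called 3.54% of all genes in this comparison, against 0.707% with all arrays. STZ, SD vs. Con, SD differed by 0.33 (SE 0.23, adjusted p = 0.471).

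Neutrophils and macrophages are known sources of MMP9. The list of 10 neutrophil markers averaged 5.43 to 5.85 on Con, SD arrays, 5.27 to 5.93 on STZ, SD arrays and 5.48 to 5.84 on STZ, BEZ arrays. Of these 10, limma called Elane higher in STZ, BEZ vs. Con, SD (0.72, adjusted p = 0.0649), and SAM called Elane and S100a8, which differed by -0.44 (adjusted p = 0.167 by limma). The 12 macrophage markers had means of 8.62 to 9.39, 8.12 to 9.18 and 8.94 to 9.37 in the same order, and limma called 0 of them in STZ, BEZ vs. Con, SD (1 at an unadjusted p under 0.05 and 2 by SAM, Cd14 and Mertk). Of all genes, limma called 5.95% and SAM 25.1% in that comparison. The range of both lists in STZ, BEZ lay within that of Con, SD. In STZ, BEZ vs. STZ, SD the median difference was 0.28 for macrophage and 0.03 for neutrophil markers, beside 0.0076 over all genes. There limma and SAM called 0 of both lists. An unadjusted p under 0.05 was found for 3 macrophage and 0 neutrophil markers, beside 10.2% of all genes. The part of these cells in the Mmp9 result was not tested.

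Mmp2 had signals of 9.73, 10.01 and 10.29 in Con, SD (lowest, median and highest) and 9.64, 10.74 and 10.88 in STZ, SD. In STZ, BEZ it had 10.31, 10.55, 10.46, 10.75 and 10.85. STZ, SD replicates 1, 2, 4 and 5 and all STZ, BEZ mice were above every control, whereas STZ, SD replicates 3 and 6 (9.68 and 9.64) were below every control. The differences from Con, SD were 0.40 (SE 0.20, adjusted p = 0.285) in STZ, SD and 0.57 (SE 0.22, adjusted p = 0.166) in STZ, BEZ. Without STZ, SD replicate 6 they passed the test, with 0.56 (adjusted p = 0.0679) and 0.57 (adjusted p = 0.0777). Both also passed without replicate 3 (adjusted p = 0.0787 and 0.098). The difference of STZ, BEZ from Con, SD uses neither of these arrays and stayed the same.

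Mmp14, whose product activates proMMP2 at the cell surface, had signals of 8.18, 8.40 and 8.59 (lowest, median and highest) in Con, SD and 8.19, 8.91 and 9.21 in STZ, SD. In STZ, BEZ they were 8.46, 8.69, 8.52, 8.66 and 8.98. STZ, SD replicates 1 to 5 were above every control and replicate 6 was among the controls. Mmp14 rose by 0.49 (SE 0.14, adjusted p = 0.047) in STZ, SD vs. Con, SD, and by 0.62 (adjusted p = 0.00625) without replicate 6. The call was lost without STZ, SD replicate 2 (adjusted p = 0.116) or 4 (adjusted p = 0.115). In STZ, BEZ it differed from Con, SD by 0.29 (SE 0.15, adjusted p = 0.293) and from STZ, SD by -0.19, with a 95% confidence interval from -0.51 to 0.12. The other membrane-type genes, Mmp16, Mmp17, Mmp24 and Mmp25, did not pass the test in any comparison.

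Mmp11 encodes stromelysin-3, which leaves the cell already activated by furin. Its signals were 7.12, 7.48 and 7.68 in Con, SD (lowest, median and highest) and 7.18, 8.23 and 8.58 in STZ, SD. In STZ, BEZ replicates 1 to 5 they were 8.08, 8.27, 8.35, 7.89 and 8.35. All STZ-injected mice except STZ, SD replicate 6 were above every control. Mmp11 rose by 0.60 (SE 0.18, adjusted p = 0.058) in STZ, SD and by 0.73 (SE 0.19, adjusted p = 0.0443) in STZ, BEZ, each against Con, SD. The first call was lost without Con, SD replicate 6 or 7 or STZ, SD replicate 1, 2 or 4 (highest adjusted p 0.141). The second was lost without STZ, BEZ replicate 2 (adjusted p = 0.123) or 5 (adjusted p = 0.134). The STZ, BEZ vs. STZ, SD difference was 0.13, with a 95% confidence interval from -0.28 to 0.54.

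Among the other ADAMTS genes, Adamts6 rose in both STZ groups. Its signals were 6.22, 6.39 and 6.67 (lowest, median and highest) in Con, SD and 6.59, 6.80 and 7.21 in STZ, SD. In STZ, BEZ it had 7.01, 7.05, 6.75, 6.82 and 6.65. The ranges met at their edges, where Con, SD replicate 3 (6.67) lay above STZ, SD replicate 1 (6.59) and STZ, BEZ replicate 5 (6.65). The differences from Con, SD were 0.45 (SE 0.11, adjusted p = 0.0217) in STZ, SD and 0.44 (SE 0.11, adjusted p = 0.0383) in STZ, BEZ. The first of these held in all 18 fits that left out 1 array, and the second was lost without STZ, BEZ replicate 2 (adjusted p = 0.129).

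Adamts12 signals were 7.97, 8.57 and 8.93 (lowest, median and highest) in Con, SD and 7.61, 9.11 and 9.90 in STZ, SD. In STZ, BEZ they were 9.55, 9.62, 9.46, 9.53 and 9.79. The STZ, BEZ mice were close together above all controls, whereas STZ, SD mice lay above, among and below them. STZ, BEZ exceeded Con, SD by 1.03 (SE 0.30, adjusted p = 0.0738), and this call was lost in 9 of 18 fits that left out 1 array (highest adjusted p 0.192, without STZ, BEZ replicate 5), namely without any one of the 5 STZ, BEZ arrays or Con, SD replicate 1, 2, 3 or 5. STZ, SD differed from Con, SD by 0.40 (SE 0.29, adjusted p = 0.489), and by 0.67 (adjusted p = 0.0779) without replicate 6.

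Adamts16 had signals of 6.25, 6.37 and 6.56 (lowest, median and highest) in Con, SD and 6.04, 6.15 and 6.47 in STZ, SD. In STZ, BEZ it had 6.11, 5.89, 6.20, 6.10 and 5.90, below every control. It fell by 0.35 (SE 0.09, adjusted p = 0.04) in STZ, BEZ vs. Con, SD, a call lost without STZ, BEZ replicate 2 (adjusted p = 0.132) or 5 (adjusted p = 0.133). It differed by -0.18 (SE 0.08, adjusted p = 0.23) in STZ, SD vs. Con, SD, and passed the test without STZ, SD replicate 6 (adjusted p = 0.0743). The other 6 of these 9 genes did not pass the limma test in any comparison.

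The ADAMTS-like genes had differences of both signs. Adamtsl2 had signals of 6.60, 7.03 and 7.59 (lowest, median and highest) in Con, SD and 6.20, 6.60 and 6.89 in STZ, SD. The STZ, BEZ mice had 6.64, 6.40, 6.67, 6.58 and 6.52. All 3 groups overlapped. It fell by 0.43 in STZ, SD (SE 0.14, adjusted p = 0.089), a call lost in 13 of 18 fits that left out 1 array. It held without Con, SD replicate 1, 3 or 5 or STZ, SD replicate 5 or 6, and was lost without each other array (highest adjusted p 0.179, without STZ, SD replicate 1). In STZ, BEZ the difference from Con, SD was -0.42 (SE 0.15, adjusted p = 0.146). Adamtsl1, which encodes punctin, averaged 7.67 ± 0.35 for Con, SD, 8.26 ± 0.79 for STZ, SD and 8.33 ± 0.39 for STZ, BEZ. STZ, SD replicates 1, 2 and 4 were above every control, and replicate 6 (6.78) was below all of them. Its STZ, SD vs. Con, SD difference was 0.59 (SE 0.28, adjusted p = 0.252), and 0.89 (adjusted p = 0.0146) without replicate 6. STZ, BEZ differed from Con, SD by 0.67 (SE 0.30, adjusted p = 0.243). The same difference also passed the test without that array, which is in neither group (adjusted p = 0.0565). Adamtsl3 had one of the larger differences below 0 in STZ, BEZ vs. STZ, SD, at -0.21 (SE 0.11, adjusted p = 0.554).

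Mmp19 and Mmp28 (epilysin) are MMPs outside the main classes, and both had lower means in STZ, SD than in either other group. Mmp19 signals were 7.91, 8.84 and 9.34 (lowest, median and highest) in Con, SD, 7.00, 8.24 and 9.05 for STZ, SD, and 8.93, 8.90, 9.04, 8.96 and 8.97 in STZ, BEZ. Mmp28 signals were 8.00, 8.58 and 8.84, then 7.10, 7.86 and 8.84, and in STZ, BEZ 8.56, 8.62, 8.39, 8.71 and 8.96. For both genes the STZ, SD group overlapped with both other groups. STZ, BEZ vs. STZ, SD differences were 0.79 (SE 0.32, adjusted p = 0.399) for Mmp19 and 0.67 (SE 0.25, adjusted p = 0.334) for Mmp28, and STZ, SD vs. Con, SD differences were -0.60 (adjusted p = 0.272) and -0.48 (adjusted p = 0.253). Without STZ, SD replicate 1 Mmp28 passed the test in both, with 0.85 (adjusted p = 0.0655) and -0.65 (adjusted p = 0.0834). That fit called 3.54% of all genes in the first of these comparisons and 8.86% in the second, against 0.707% and 10.3% with all arrays.

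None of the 10 genes of the chromosome 9 cluster, 8 of which carry the AP-1 motif shown above, passed the limma test in any of the 3 comparisons. None of them had an unadjusted p under 0.05. SAM called 1 of them, Mmp3 in STZ, BEZ vs. Con, SD, where it called 25.1% of all genes. Mmp7 (matrilysin) varied most between mice, from 6.65 to 9.54 in Con, SD, from 6.06 to 10.58 in STZ, SD and from 6.44 to 10.13 in STZ, BEZ. Its difference of 0.92 in STZ, SD vs. Con, SD had an SE of 0.74 (adjusted p = 0.546). Mmp12, the macrophage elastase, ranged from 7.90 to 9.84, from 6.30 to 9.47 and from 7.42 to 9.95 in the same order, with a difference of -0.38 (SE 0.47, adjusted p = 0.71). Mmp13, a collagenase, and Mmp3, stromelysin-1, differed by -0.19 (SE 0.11, adjusted p = 0.365) and 0.25 (SE 0.17, adjusted p = 0.462). For Mmp13 the 95% confidence interval ran from -0.42 to 0.04, which is narrow beside that of Mmp7, from -0.65 to 2.48.

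The 24 members not described one by one had differences from -0.27 to 0.27 in STZ, SD vs. Con, SD, from -0.09 to 0.23 in STZ, BEZ vs. STZ, SD and from -0.30 to 0.51 in STZ, BEZ vs. Con, SD. Their lowest adjusted p values by limma were 0.175, 0.636 and 0.179, and 1, 0 and 1 of them had an unadjusted p under 0.05. SAM called 2 of them, Mmp23 and Adamtsl4, in STZ, BEZ vs. Con, SD, where it called 25.1% of all genes. Over the members, 24 of 49 had a mean signal at or above the median of all genes.

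**Figure D4:**
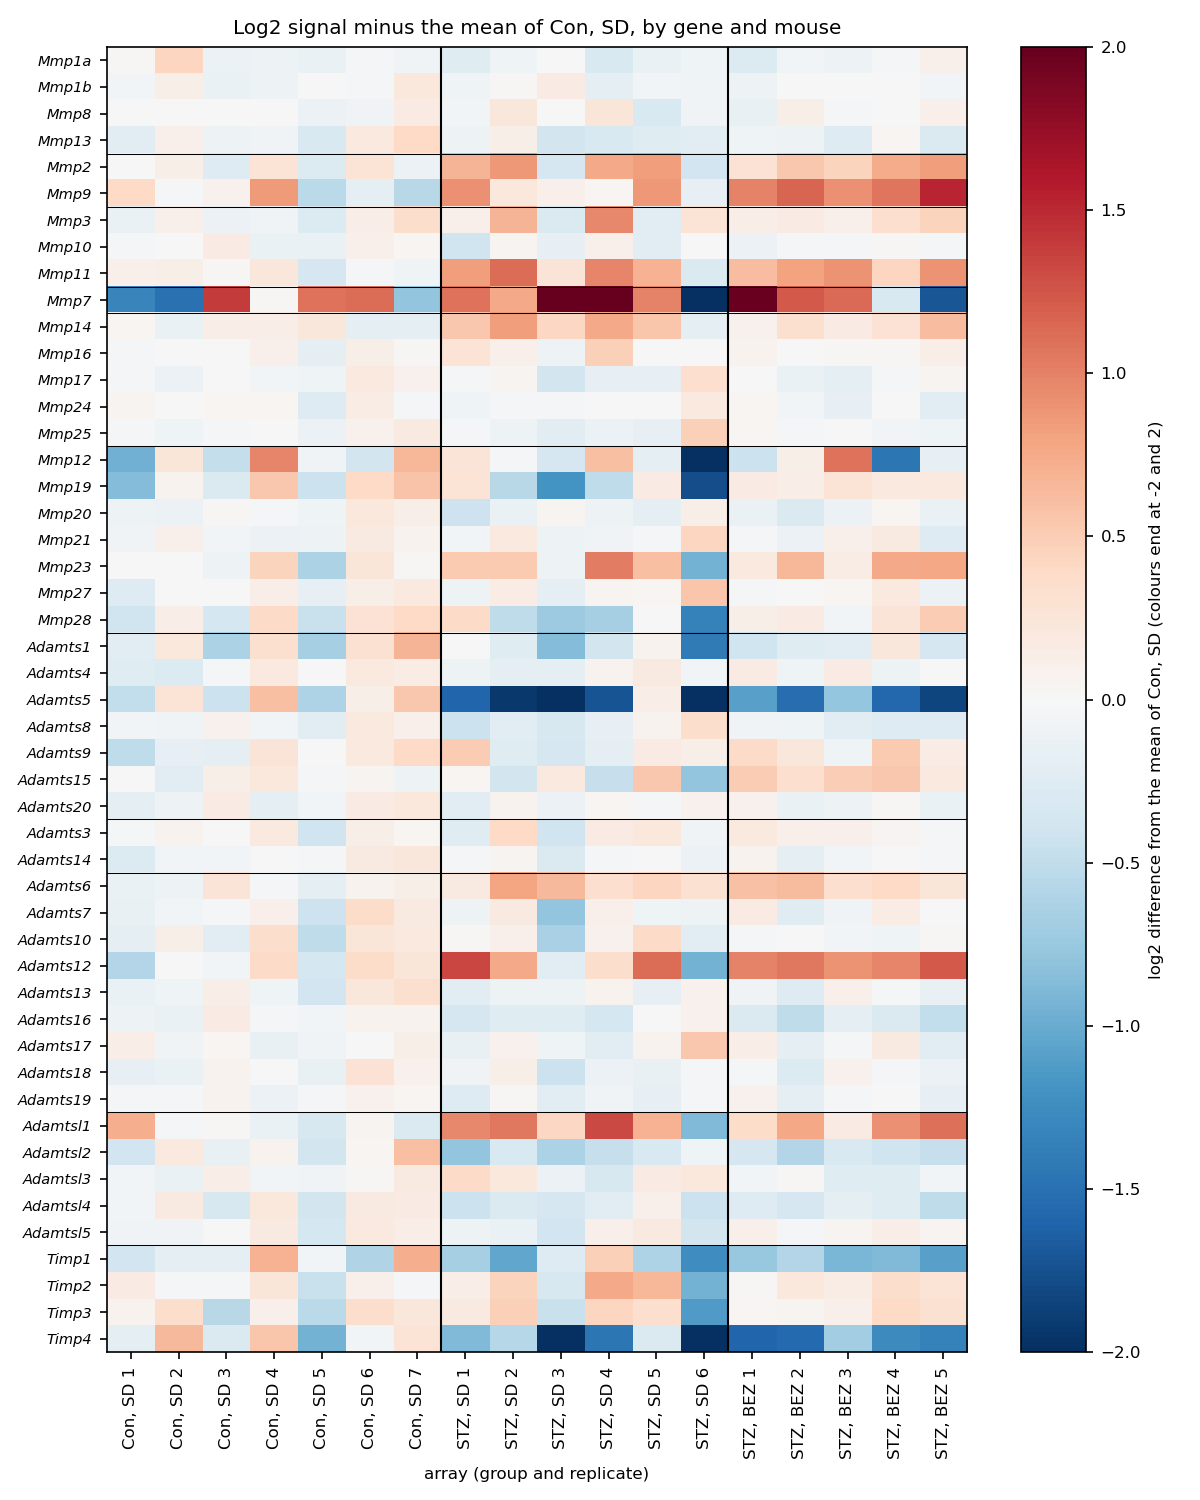
Log2 signal of each of the 49 genes (rows, in blocks by family) in each of the 18 mice (columns, by group and replicate) minus the mean of Con, SD, with red above, blue below and colours ending at -2 and 2. Adamts5 and Timp4 are blue in most STZ-injected mice and Mmp11 is red in all of them but STZ, SD replicate 6, where Mmp12, Mmp19 and Mmp28 are also blue.

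Genes that act with these enzymes were taken from a list of activators and further inhibitors, of which 20 of 22 were measured. In STZ, SD vs. Con, SD, Plat (tissue plasminogen activator) rose by 0.65 (SE 0.19, adjusted p = 0.0552) and Tfpi2, a Kunitz-type protease inhibitor, fell by 0.51 (SE 0.16, adjusted p = 0.0749). The other 18 did not pass the test there, where 5.82% of all genes were called higher and 4.52% lower. In STZ, BEZ vs. STZ, SD and STZ, BEZ vs. Con, SD limma called 0 of the 20, beside 0.707% and 5.95% of all genes. SAM called 0 and 5 of them, beside 2.31% and 25.1% of all genes. An unadjusted p under 0.05 was found for 2 and 4, beside 10.2% of all genes in the first of these comparisons. The median differences of the list were -0.02, 0.13 and 0.07 in STZ, SD vs. Con, SD, STZ, BEZ vs. STZ, SD and STZ, BEZ vs. Con, SD, beside -0.03, 0.0076 and -0.0062 over all genes.

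Of the matrix proteins that these proteases cut or bind, 24 of 25 were measured, and 7 fell and 0 rose in STZ, SD vs. Con, SD. Over all genes, 4.52% were called lower and 5.82% higher there. This list, like that of activators and further inhibitors, was chosen with earlier results of these data known. Sparc, a collagen-binding protein, fell by 0.88 (SE 0.19, adjusted p = 0.0149), and Nid1, a basement membrane linker, by 1.11 (SE 0.28, adjusted p = 0.032). Vcan, which encodes the ADAMTS substrate versican, fell by 0.96 (SE 0.25, adjusted p = 0.0361), and Fn1, which encodes fibronectin, fell by 0.88 (SE 0.25, adjusted p = 0.0496). In STZ, BEZ vs. STZ, SD limma and SAM called 0 of the 24, beside 0.707% and 2.31% of all genes. An unadjusted p under 0.05 was found for 2 of them, beside 10.2% of all genes. For STZ, BEZ vs. Con, SD limma called 1 of the 24, beside 5.95% of all genes. It was Thbs2, a thrombospondin known to bind MMP2, which rose by 1.22 (SE 0.26, adjusted p = 0.0191). There 5 had an unadjusted p under 0.05, and SAM called 10 (Vcan, Dcn, Fmod, Thbs2, Fn1, Sparc, Nid2, Lama4, Lamb1 and Vwf), beside 25.1% of all genes called by SAM in that comparison. The median differences of this list were -0.07, 0.12 and -0.08 in the 3 comparisons, beside -0.03, 0.0076 and -0.0062 over all genes.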

How the data were processed

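Visceral fat RNA of 18 mice was measured on Affymetrix Mouse Gene ST arrays, 1 per mouse. The authors deposited log2 signals that they had summarised by robust multi-array averaging (RMA) in Affymetrix Expression Console 1.2, according to the submitters' processing notes. RMA quantile-normalizes the arrays, so a shift shared by most genes is removed before deposit. The table has 35556 probe sets and 18 columns, and 0 columns were left out. Array medians ran from 6.76 to 6.87. Probe sets were named through the platform annotation: 21789 had 1 symbol, 1621 several and 12146 no name here. For each symbol the probe set with the highest mean was kept, giving 19938 genes, among them 49 members (all 49 Entrez IDs are in RefSeq with the same symbol), of which 4 have several probe sets. No filter on low values was used. The number of arrays limits the precision.

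Groups came from the sample titles. A single fit of 3 group means over all arrays was made with limma 3.58.1 in R 4.3.3 (15 residual and 2.44 prior degrees of freedom). Benjamini-Hochberg adjustment ran over the whole set of genes, and a gene was called below 0.10, matching the 10% false discovery rate of the study's own SAM analysis. Differences are of group means on the log2 scale, and a fold is the ratio that such a difference stands for. P-values are two-sided.

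The members, families, marker lists and named genes were chosen with earlier results of these data known. Named were the TIMPs, every changed member, Mmp2, Mmp3, Mmp9, Mmp11, Mmp12, Mmp13, Mmp14, Mmp19, Adamts1, Adamts4, Adamts5, Adamts9, and the 5 largest differences of each sign in each comparison. Alternatives were a stricter threshold, a fold minimum of 1.5, SAM (100 permutations, seed 1), other choices of probe set, a filter on dim genes, quantile normalization, centred arrays, array weights, a robust fit with a variance trend, fits of only the arrays compared, replicate blocks, tissue covariates and each array left out. A fit without the 5 arrays with pancreas signal was added after the values were seen. The fits were tested on simulated data. Motifs were counted in RefSeq promoter windows. Other tissues of the study were not analysed here.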

Additional observations from a re-analysis of the deposited data

Results flagged for a closer look

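In a search of 108 sets of group values (the 25 named genes and 11 marker lists in 3 groups), 6 had an array far from the others of its group. About 1 in 20 sets would be flagged by chance if the sets were independent. They share arrays and several flags fell on the same array, so the share found cannot be set against that rate. In STZ, SD replicate 6, Mmp7 was lowest with 6.06 (others 8.90 to 10.58) and Mmp12 was lowest with 6.30 (others 8.54 to 9.47), while the pancreas markers were highest with 12.95 (others 5.85 to 6.09). Adamtsl1 was highest in Con, SD replicate 1 with 8.39 (others 7.34 to 7.72), and Timp2 was lowest in Con, SD replicate 5 with 10.47 (others 10.88 to 11.16). The mean of the activators and further inhibitors was highest in STZ, BEZ replicate 5 with 8.86 (others 8.66 to 8.71). This array is also the one of its group without pancreas signal, and whether these belong together was not tested.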

How the results depend on the processing

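For STZ, SD vs. Con, SD, 6 members were called. The count was 3 at an adjusted p under 0.05, 3 with a fold minimum of 1.5, 3 in a fit of only the arrays of both groups, 2 with the replicate block and 14 with the pancreas and epididymis lists as covariates. It ran from 3 to 10 when 1 array was left out, with 10 without STZ, SD replicate 6 and 3 without Con, SD replicate 6 or 7 or STZ, SD replicate 2 or 4. For STZ, BEZ vs. STZ, SD, 0 were called, against 1 by SAM (Mmp9) and 5 with the covariates (Mmp9, Mmp19, Mmp28, Adamts12 and Adamts15, all higher). Leaving out 1 array gave 0 to 2, with Mmp9 and Mmp28 called without STZ, SD replicate 1 and Adamts15 without STZ, SD replicate 5. For STZ, BEZ vs. Con, SD, 6 were called, against 16 by SAM, 14 with array weights, 12 in a fit of only the arrays of both groups, 3 with the replicate block, 14 with the covariates and 0 without the arrays with pancreas signal, a setting chosen after seeing the data. Leaving out 1 array gave 1 to 11, with 11 without STZ, SD replicate 6, 1 without STZ, BEZ replicate 2 and 2 without STZ, BEZ replicate 5. The share of all genes called moved too. In STZ, SD vs. Con, SD it was 10.3%, against 20% with the covariates and 3.41% with the replicate block. There it was 5.46% at an adjusted p under 0.05, 3.09% with the fold minimum and 5.13% with only the arrays of both groups. It was 14.5% without STZ, SD replicate 6, and 6.48% and 5.95% without Con, SD replicate 6 or 7. Without STZ, SD replicate 2 or 4 it was 5.66% and 5.98%. In STZ, BEZ vs. STZ, SD it was 0.707%, against 12.3% with the covariates and 2.31% by SAM. There it was 3.54% without STZ, SD replicate 1 and 1.92% without STZ, SD replicate 5. In STZ, BEZ vs. Con, SD it was 5.95%, against 25.1% by SAM, 19.1% with array weights, 14.1% with only the arrays of both groups, 3% with the replicate block, 20.3% with the covariates, 1.4% without the arrays with pancreas signal and 10.5% without STZ, SD replicate 6. In this last comparison it was 2.1% without STZ, BEZ replicate 2 and 2.16% without STZ, BEZ replicate 5. The cause of these shifts was not tested. The other counts stayed within 1.5 times of those reported.

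Replicate numbers name different animals, and same-numbered arrays correlated at over 0.1 in only 2 of 16 pairs (from -0.36 to 0.70), so the numbers were not taken as pairs. With the replicate block, Adamts5 had an adjusted p of 0.103 and Timp4 of 0.142 in STZ, SD vs. Con, SD. Over the named genes and the counts of members called, 2096 values under an alternative stayed the same. For a gene this means the same sign and the same side of the threshold, and for a count staying within the limit given above. A call was gained by 60 values and lost by 77. The other 86 were counts beyond that limit, or differences that changed sign where neither fit made a call. No called value changed sign. These totals leave out the fit without the arrays with pancreas signal. Centring each array moved the median difference of all genes by at most 0.03. The deposited signals carry no detection call, so whether a dim gene was above background was not determined.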
